A study of Mus musculus with 8 samples.

Results

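The inhibitors of cyclin-dependent kinases (CDKs) and the p53 pathway were examined through 10 genes, *Cdkn1a*, *Cdkn1b*, *Cdkn1c*, *Cdkn2a*, *Cdkn2b*, *Cdkn2c*, *Cdkn2d*, *Trp53*, *Mdm2* and *Ccng1*. They were chosen by name, out of 22911 genes that carry a symbol on the array, and all non-control probes listed under a mouse RefSeq transcript of these genes were taken. This gave 14 of the 56605 probes on the array, with 2 probes each for 4 of the genes (*Cdkn1a*, *Cdkn2a*, *Cdkn2b* and *Mdm2*) and 1 probe for each of the others. The question was whether the higher *Cdkn1a* signal of muscle in which *Grsf1* was deleted was shared by other inhibitors or by the p53 pathway genes.

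RNA came from quadriceps muscle of 6 male mice aged 17 months, 3 Grsf1cKO and 3 wild type (WT), and was measured on Agilent 1-color arrays. In Grsf1cKO mice, *Grsf1* exons flanked by loxP sites were removed by a Myf5-driven Cre, which acts in muscle precursors, so that the deletion is aimed at fibers and satellite cells and not at the other cells of the tissue. The floxed allele was derived from a tm1a allele whose cassettes had been taken out with FLPo, and the labels describe the controls only as wild type. The labels name the vastus intermedius, whereas the methods name the rectus femoris, and which of these quadriceps muscles was used was not resolved here.

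Grsf1cKO 1 and WT 1 were also measured on a repeat array, giving 8 arrays. Values are log2 processed signals after quantile normalization, with the arrays of a mouse averaged. The repeat array of Grsf1cKO 1 stood apart, since 88.9% of its non-control spots were well above background by the scanner software's flag, against 66.3% to 73.1% on the others, and its 25th percentile of signal was 55.5, against 9.68 to 15.7. Values from the first array of each mouse are therefore also given for *Cdkn1a*, *Foxo3* and the p53 target and denervation-responsive lists. In the plot of fold changes they are given for every tested probe of the 10 genes. Other values are over all arrays. Slide 1 held only WT arrays, the first of WT 1 and that of WT 2, while slide 2 held the remaining 6 arrays, from all Grsf1cKO mice, WT 3 and the repeat of WT 1.

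The labels were first checked with *Grsf1* itself. Its log2 signal was 12.16, 12.03 and 12.09 in Grsf1cKO mice 1 to 3, against 14.31, 14.26 and 14.28 in WT mice 1 to 3. Every Grsf1cKO mouse was far below every WT mouse, with a log2 fold change of -2.19 (SE 0.0815, adjusted p = 0.00275 from limma). Whether the probe lies within the deleted exons is not given in the sources used here. All 10 markers of skeletal muscle fibers were also well above background, *Tnnt3*, fast troponin T, being the brightest. This does not tell which of the quadriceps muscles was sampled.

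CDK inhibitors stop the cell cycle at the protein level in separate ways. The Cip/Kip proteins, encoded by *Cdkn1a* (p21), *Cdkn1b* (p27) and *Cdkn1c* (p57), bind a range of cyclin-CDK complexes, whereas the INK4 proteins, encoded by *Cdkn2a* (p16), *Cdkn2b* (p15), *Cdkn2c* (p18) and *Cdkn2d* (p19), bind CDK4 and CDK6 and keep them from pairing with cyclin D. The transcription factor p53, encoded by *Trp53*, activates *Cdkn1a*, *Ccng1* and *Mdm2* after DNA damage, and MDM2 in turn marks p53 for degradation; in muscle, p21 is best known for the permanent cell cycle exit of differentiating myoblasts, and its mRNA is also known to go up in denervated or immobilized muscle and in senescent cells.

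In Grsf1cKO muscle the signal of the brighter *Cdkn1a* probe was 1.53 times that in WT muscle, with every Grsf1cKO mouse above every WT mouse. The other, dim *Cdkn1a* probe overlapped between the genotypes, with a log2 fold change of 0.07. Among the other 6 inhibitors, *Cdkn2c* was lower in every Grsf1cKO mouse, and the brightest probes of *Cdkn1b*, *Cdkn1c*, *Cdkn2a*, *Cdkn2b* and *Cdkn2d* overlapped between the genotypes, although a dimmer *Cdkn2b* probe was lower in every Grsf1cKO mouse. *Trp53*, *Mdm2* and *Ccng1* overlapped as well. None of these differences passed limma's test across all probes.

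Of the 14 probes, 13 were tested, each of them well above background in 3 or more mice, and the remaining one was a probe of *Cdkn2a*. With limma, 0 of the 10 genes met the criteria of the study's results text. These ask for more than 1.5-fold, p under 0.01 and a false discovery rate under 0.2, taken here as the Benjamini-Hochberg adjusted p. Of all 38888 probes tested, 3 met these criteria (0.00771%). A test against the normal distribution was run here on the log2 signals under the same criteria, as the methods name such a test without its formula. It called 1 of the 10 genes, *Cdkn1a*, and 320 probes in all, 81 higher and 239 lower. *Cdkn2c* had a smaller adjusted p in this test (0.0821 against 0.136) and missed only the 1.5-fold limit. The test is not the study's own calculation, which was made on z-scores with further filters. At an unadjusted p under 0.05 from limma, the brightest probe of 1 gene, *Cdkn1a*, was higher in Grsf1cKO, against 1.3% of all probes tested. At the same limit 1 gene, *Cdkn2c*, was lower, against 2.94%. In the same 2 genes the mice of either genotype kept apart without overlap, 1 higher (3.09% of 38859 probes with a value in every mouse) and 1 lower (6.27%). For the 9 genes other than *Cdkn1a* the median log2 fold change was -0.02, against -0.03 for all probes tested. With arrays scaled by their 75th percentile rather than quantile normalized, 1031 of all probes were higher and 271 lower at an unadjusted p under 0.05, where 505 and 1143 were before, and the log2 fold changes of *Cdkn1a* and *Cdkn2c* were 0.61 and -0.34.

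**Figure D1:**
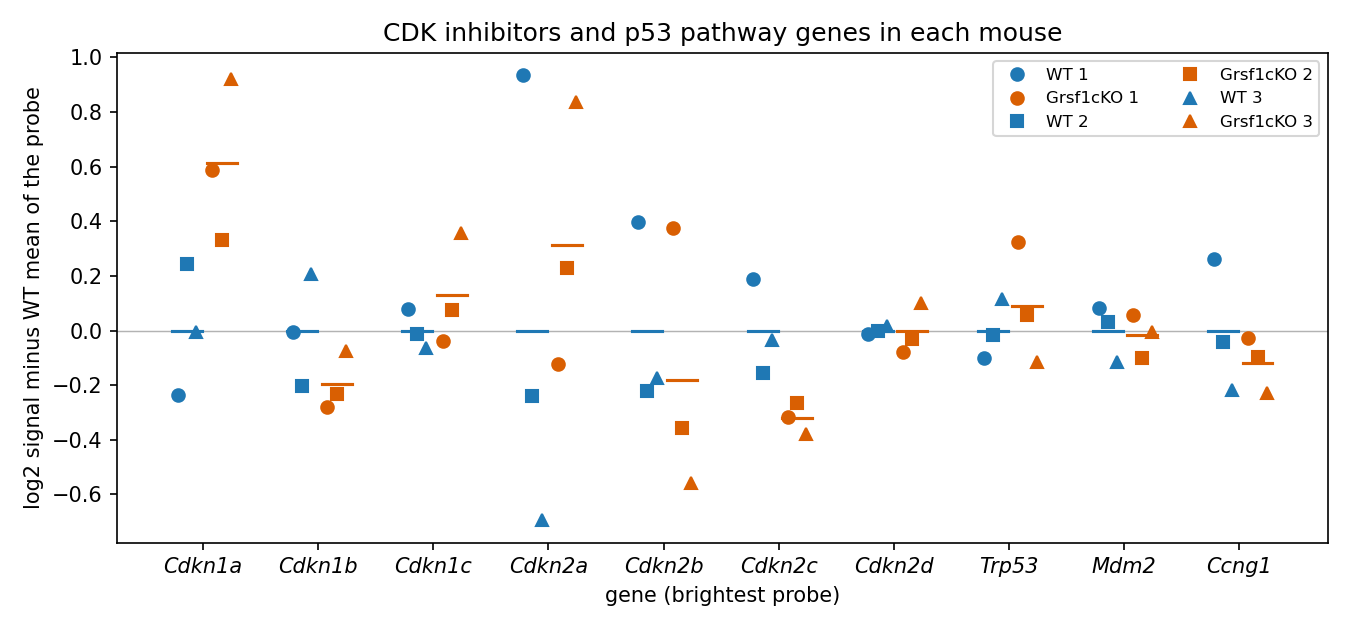
Log2 signal of the brightest probe of each gene in each mouse, minus the mean of the 3 WT mice for that probe; symbols stand for single mice, horizontal bars for the means of a genotype. The Grsf1cKO mice lie above all WT mice for *Cdkn1a* and below them for *Cdkn2c*, and the genotypes overlap for the other 8 genes.

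*Cdkn1a* encodes p21, the Cip/Kip inhibitor that p53 induces. The probe listed under NM_007669 had log2 signals of 12.09, 11.84 and 12.43 in Grsf1cKO mice 1 to 3, against 11.27, 11.75 and 11.50 in WT mice 1 to 3. The lowest Grsf1cKO mouse, Grsf1cKO 2, exceeded the highest WT mouse, WT 2, by a small margin, while Grsf1cKO 3 and WT 1 lay at the ends. The means were 12.12 ± 0.30 and 11.51 ± 0.24 (SD, n = 3 each). This is a 1.53-fold higher signal, or 0.61 on the log2 scale (SE 0.194, 95% interval 0.14 to 1.09). The unadjusted p from limma was 0.019 and the adjusted p 0.994, and the 2-sided exact permutation test gave p = 0.1, the smallest that 3 mice against 3 allow. *Cdkn1a* was picked for its difference in these same mice, so that the difference is a description and no independent evidence. The methods also list RT-qPCR assays of *Cdkn1a*, *Cdkn2a* and *Cdkn2b*, for which the paper reports no significant change without showing the data. The values of these assays are not among the deposited files and were not examined.

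The difference in *Cdkn1a* was also present within slide 2. The first array of Grsf1cKO 1 gave 12.18 and its repeat 12.01, and the arrays of WT 1 both gave 11.27. With the first arrays alone the log2 fold change was 0.64 (adjusted p = 0.991 from limma). It was 0.67 with the slide as a term in the model and 0.74 on slide 2 alone. Slide 2 lacks WT 2, the WT mouse with the highest signal, and leaving out WT 2 over both slides also gave 0.74. Without Grsf1cKO 3, the mouse with the highest signal, it was 0.46, and over fits that left out 1 mouse each the range was 0.46 to 0.75. Of these fits, the one without WT 1 gave 0.49 and an unadjusted p above 0.05, at 0.0613 from limma. In a muscle homogenate fewer cells of a type and less RNA per cell cannot be told apart, and this holds for every gene described here.

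The other *Cdkn1a* probe, listed under NM_001111099, gave no such difference. It was dim, with log2 signals of 5.98, 5.48 and 5.86 in Grsf1cKO mice 1 to 3, against 5.64, 5.74 and 5.74 in WT mice 1 to 3. The genotypes overlapped, with Grsf1cKO 2 the lowest of all mice. Its log2 fold change was 0.07 over all arrays (95% interval -0.29 to 0.42) and -0.17 on the first arrays. The repeat array of Grsf1cKO 1 gave 6.47 where the first gave 5.48, and that of WT 1 gave 5.43 where the first gave 5.85. Averaging both probes of the gene would give 0.34. The difference in *Cdkn1a* thus rests on the probe of NM_007669.

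Promoter windows of *Cdkn1a* and of the p53 pathway genes are shown because the question was whether genes under p53 moved together. RefSeq promoter entries (GRCm38.p6), each reaching from 250 bases before a transcript start to 50 after it, were matched by symbol for 9 of the 10 genes, with 12 windows; *Cdkn1c* had no entry. The p53 half-site, a palindromic motif of 10 bases searched on both strands, was found in 5 of these 12 windows and in 8.36% of all 32851 windows. *Cdkn1a* has 2 windows, with starts 2790 bases apart, and the table does not say which transcript each serves. The upstream one holds 2 half-sites, where 0.359% of all windows hold 2 or more, and the downstream one holds none. The windows of *Trp53*, *Mdm2* and *Ccng1* hold 1 each, as does that of *Cdkn2d*, and those of *Cdkn1b*, *Cdkn2a*, *Cdkn2b* and *Cdkn2c* hold none. Half-sites are in capitals, and each sequence runs 5′ to 3′ on the strand of the gene. A match is a description of the letters and not a bound site.
Cdkn1a, chr17:29090729-29091028, plus strand: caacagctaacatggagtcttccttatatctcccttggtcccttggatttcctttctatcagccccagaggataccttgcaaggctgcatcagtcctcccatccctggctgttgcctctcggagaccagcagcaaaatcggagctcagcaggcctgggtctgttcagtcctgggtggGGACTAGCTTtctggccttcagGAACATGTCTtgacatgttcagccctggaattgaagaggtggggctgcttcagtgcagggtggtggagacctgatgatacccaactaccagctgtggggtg
Cdkn1a, chr17:29093519-29093818, plus strand: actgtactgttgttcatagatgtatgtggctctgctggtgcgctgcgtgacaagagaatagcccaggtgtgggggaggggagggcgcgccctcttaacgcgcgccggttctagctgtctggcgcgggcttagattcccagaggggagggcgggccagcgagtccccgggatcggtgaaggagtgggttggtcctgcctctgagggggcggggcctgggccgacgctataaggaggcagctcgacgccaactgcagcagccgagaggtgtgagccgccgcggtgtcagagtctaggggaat
Trp53, chr11:69580109-69580408, plus strand: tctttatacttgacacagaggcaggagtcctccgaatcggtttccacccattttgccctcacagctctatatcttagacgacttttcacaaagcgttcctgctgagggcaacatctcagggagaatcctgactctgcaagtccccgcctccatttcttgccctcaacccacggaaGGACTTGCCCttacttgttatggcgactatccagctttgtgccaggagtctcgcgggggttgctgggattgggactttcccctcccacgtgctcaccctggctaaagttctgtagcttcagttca
Mdm2, chr10:117710709-117711008, minus strand: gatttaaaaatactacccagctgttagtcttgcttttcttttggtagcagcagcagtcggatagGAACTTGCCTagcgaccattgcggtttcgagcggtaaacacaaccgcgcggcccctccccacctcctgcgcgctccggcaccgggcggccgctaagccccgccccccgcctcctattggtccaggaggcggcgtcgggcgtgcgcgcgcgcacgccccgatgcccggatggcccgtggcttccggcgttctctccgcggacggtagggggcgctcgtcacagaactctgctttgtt
Ccng1, chr11:40755237-40755536, minus strand: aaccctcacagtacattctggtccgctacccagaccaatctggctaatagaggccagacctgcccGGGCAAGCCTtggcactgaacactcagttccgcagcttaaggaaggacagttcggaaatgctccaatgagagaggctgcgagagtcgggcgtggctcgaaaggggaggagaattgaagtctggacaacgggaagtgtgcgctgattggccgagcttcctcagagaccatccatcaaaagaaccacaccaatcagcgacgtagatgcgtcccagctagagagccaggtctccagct

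The remaining Cip/Kip genes, *Cdkn1b* and *Cdkn1c*, overlapped between the genotypes. *Cdkn1b*, whose product p27 holds quiescent cells out of the cycle, had log2 signals of 12.82, 12.87 and 13.03 in Grsf1cKO mice 1 to 3, against 13.10, 12.90 and 13.31 in WT mice 1 to 3. These values overlapped, Grsf1cKO 3 lying above WT 2, and the point estimate was opposite in sign to that of *Cdkn1a*, at -0.20 (95% interval -0.52 to 0.13), or -0.30 without WT 2 and -0.09 without WT 3. *Cdkn1c*, an imprinted gene whose product p57 acts beside p21 in differentiating muscle cells, had 14.12, 14.24 and 14.52 in Grsf1cKO mice 1 to 3, against 14.24, 14.15 and 14.09 in WT mice 1 to 3. Grsf1cKO 3 was the highest mouse here and Grsf1cKO 1 was below WT 1 and WT 2. The log2 fold change of *Cdkn1c* was 0.13 (95% interval -0.17 to 0.44), or 0.02 without Grsf1cKO 3 and 0.22 without Grsf1cKO 1.

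Among the INK4 genes, *Cdkn2c* was the one whose brightest probe separated the genotypes, and in the opposite direction to *Cdkn1a*. *Cdkn2c*, whose product p18 is present in differentiated muscle cells, had log2 signals of 12.060, 12.109 and 11.996 in Grsf1cKO mice 1 to 3, against 12.564, 12.220 and 12.341 in WT mice 1 to 3. All Grsf1cKO mice lay below all WT mice, with WT 2 the closest to them. The means were 12.05 ± 0.06 and 12.38 ± 0.17 (SD, n = 3 each), a log2 fold change of -0.32 (SE 0.114, 95% interval -0.60 to -0.04). The unadjusted p from limma was 0.03 and the adjusted p 0.994, and the exact 2-sided permutation p was 0.1. On slide 2 alone the value was -0.38, with the slide as a term -0.33, and with single mice left out between -0.40 and -0.23. Without Grsf1cKO 1 (-0.32), Grsf1cKO 2 (-0.35), Grsf1cKO 3 (-0.29), WT 1 (-0.23) or WT 3 (-0.34) the unadjusted p from limma was above 0.05, and without WT 2 (-0.40) it was below.

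*Cdkn2b*, an INK4 gene induced by transforming growth factor beta, has 2 probes under NM_007670. The brighter one had 10.71, 9.98 and 9.78 in Grsf1cKO mice 1 to 3, against 10.74, 10.11 and 10.16 in WT mice 1 to 3. Mouse 1 of either genotype was the highest, and the genotypes overlapped (log2 fold change -0.18, 95% interval -0.89 to 0.53). The other probe had 8.73, 9.64 and 9.50 in Grsf1cKO mice 1 to 3, against 9.82, 9.76 and 9.86 in WT mice 1 to 3, so that all Grsf1cKO mice were lower, Grsf1cKO 1 most of all. Its log2 fold change was -0.53 (95% interval -1.11 to 0.06). Much of this difference came from Grsf1cKO 1, as Grsf1cKO 2 and 3 lay closer to the WT mice. The probes of this gene thus ranked Grsf1cKO 1 at opposite ends of its genotype.

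*Cdkn2a* encodes p16 and, from another reading frame, ARF, which binds MDM2 and frees p53. Both of its probes are listed under NM_009877. Which of the reading frames each probe measures could not be checked, since probe positions were not given. The brighter probe had 7.004, 7.352 and 7.962 in Grsf1cKO mice 1 to 3, against 8.060, 6.885 and 6.430 in WT mice 1 to 3. This was the widest spread among mice of any of the brightest probes, with the highest and the lowest mouse both WT. Its log2 fold change was 0.31 (SE 0.46, 95% interval -0.81 to 1.44), and it was -0.03 without WT 3, 0.05 without Grsf1cKO 3, 0.19 without WT 2, 0.53 without Grsf1cKO 1 and 0.78 without WT 1. The other probe was well above background on 1 of the 8 arrays, the repeat of WT 1, and was not tested. A difference in *Cdkn2a*, a common marker of senescent cells, was thus not detectable at this spread among mice. For *Cdkn2d*, encoding p19, signals lay between 12.88 and 13.06 in Grsf1cKO mice and between 12.94 and 12.97 in WT mice. The WT values lay inside the Grsf1cKO range, with a log2 fold change of -0.00 (95% interval -0.21 to 0.21).

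*Trp53* and the p53 target gene *Ccng1* overlapped between the genotypes. *Trp53* had 9.49, 9.23 and 9.05 in Grsf1cKO mice 1 to 3, against 9.07, 9.16 and 9.29 in WT mice 1 to 3. Grsf1cKO 3, the mouse highest in *Cdkn1a*, was the lowest in *Trp53*, and the log2 fold change was 0.09 (95% interval -0.25 to 0.42). *Ccng1*, the cyclin G1 gene, had 16.14, 16.07 and 15.94 in Grsf1cKO mice 1 to 3, against 16.43, 16.13 and 15.95 in WT mice 1 to 3. These overlapped, and Grsf1cKO 3 was again the lowest mouse. The log2 fold change of *Ccng1* was -0.12 (95% interval -0.47 to 0.23).

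*Mdm2*, the gene of the p53 ubiquitin ligase, has 2 probes under NM_001288586. The brighter one lay between 14.65 and 14.80 in Grsf1cKO mice and between 14.63 and 14.83 in WT mice, with a log2 fold change of -0.02 (95% interval -0.25 to 0.22). The other had 8.92, 8.88 and 8.93 in Grsf1cKO mice 1 to 3, against 8.52, 8.73 and 9.01 in WT mice 1 to 3. The Grsf1cKO mice were close together and lay inside the WT range. Its log2 fold change was 0.16 (95% interval -0.18 to 0.50). The intervals of *Trp53*, *Ccng1* and both *Mdm2* probes include 0, and each overlaps that of *Cdkn1a*, 0.14 to 1.09. These measurements are of mRNA, and p53 is largely regulated through its protein.

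**Figure D2:**
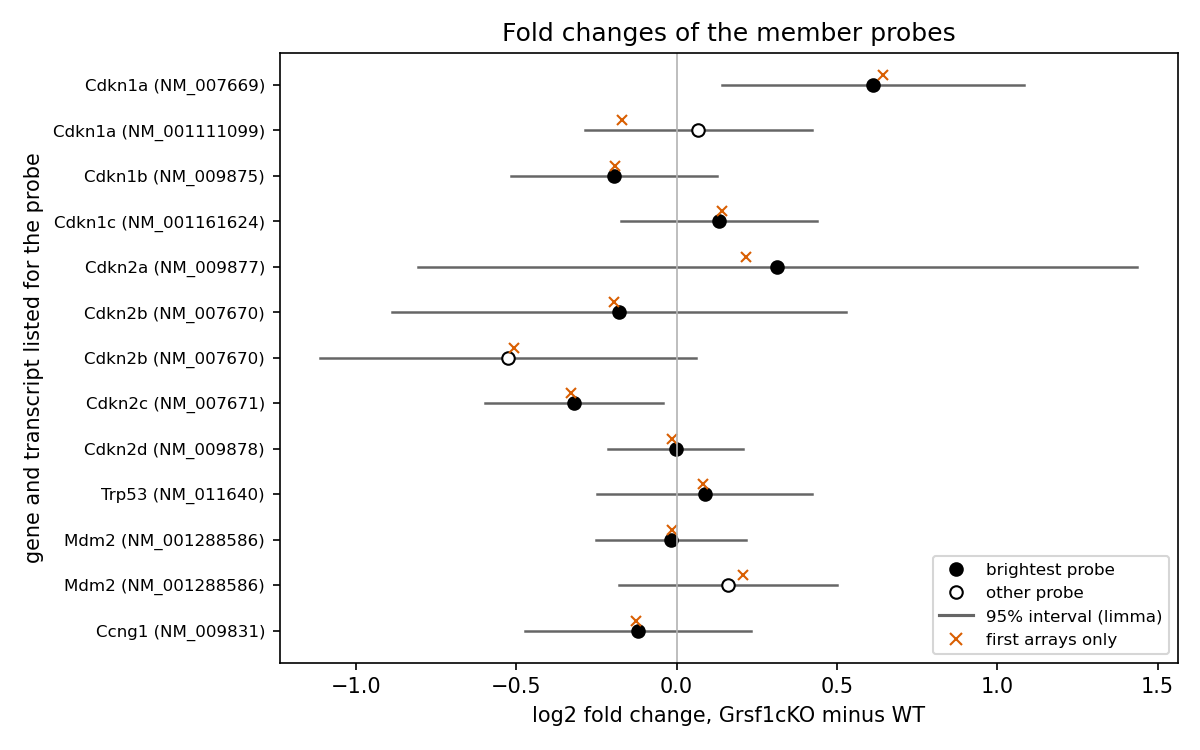
Log2 fold change (Grsf1cKO minus WT) of the 13 tested probes with the 95% interval from limma; filled circles are the brightest probe of a gene, open circles the other probe, and crosses the value on the first arrays. The intervals of *Cdkn1a* (NM_007669) and *Cdkn2c* lie on opposite sides of 0, and the other 11 include 0.

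Whether *Cdkn1a* differed more than another gene was examined directly, from the difference between the centered log2 signals of the 2 genes in each mouse. *Cdkn1a* exceeded *Cdkn2c* by 0.93 in its log2 fold change, *Cdkn1b* by 0.81, *Ccng1* by 0.73, *Mdm2* by 0.63, *Cdkn2d* by 0.62 and *Trp53* by 0.53. For these 6 of the 9 genes, the difference was larger in every Grsf1cKO mouse than in any WT mouse, and the exact 2-sided permutation p was 0.1, the lowest possible. For *Cdkn2b* (0.79), *Cdkn1c* (0.48) and *Cdkn2a* (0.30) the genotypes overlapped, with exact permutation p of 0.2, 0.2 and 0.8. Since *Cdkn1a* was picked for being higher in these mice, the 9 differences are a description. Several rested on single mice. The difference from *Trp53* was 0.27 without Grsf1cKO 3, and Grsf1cKO 1 and 2 lay barely above WT 2 in it. The difference from *Cdkn2b* was 0.45 without Grsf1cKO 3 and 0.48 without WT 1, that from *Ccng1* was 0.48 without WT 1, and that from *Cdkn2a* was -0.29 without WT 1, 0.09 without Grsf1cKO 1, 0.54 without WT 2 and 0.64 without WT 3.

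The wider pathway was described with lists of genes. Of 21 p53 regulators, 0 were higher and 0 lower at an unadjusted p under 0.05 from limma, against 1.3% and 2.94% of all probes tested. The median log2 fold change of the regulators was -0.03, equal after rounding to that of all probes tested. The regulators of smallest p were *Atr*, a kinase that signals stalled replication, with a log2 fold change of 0.14 (SE 0.0819), *Trp73*, a p53 relative, with -0.28 (SE 0.192), and *Trp53bp1*, which binds at DNA breaks, with 0.22 (SE 0.167), or 0.06 without Grsf1cKO 3. Of the 21, *Atr* was higher and 2, *Trp63* and *Rpl5*, named after their values were seen, were lower without overlap of the genotypes, against 3.09% and 6.27% of probes.

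Of 39 p53 target genes other than *Cdkn1a*, *Mdm2* and *Ccng1*, all were tested and 0 met the 3 criteria. At an unadjusted p under 0.05, 3 were higher and 1 was lower, against 1.3% and 2.94% of all probes tested. The median log2 fold change of the 39 was 0.05, with 25 above 0 and 14 below it, whereas 16551 of all 38888 probes tested were above 0. The genotypes did not overlap in 3 of the 39, with *Gadd45a* and *Eda2r* higher and *Tigar*, a regulator of glycolysis named after its values were seen, lower (log2 fold change -0.23), against 3.09% and 6.27% of probes.

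*Gadd45a*, a growth arrest gene that responds to DNA damage and also to denervation, had log2 signals of 12.68, 11.78 and 11.99 in Grsf1cKO mice 1 to 3, against 11.52, 11.63 and 11.45 in WT mice 1 to 3. All Grsf1cKO mice were higher, Grsf1cKO 1 most of all, at a log2 fold change of 0.62 (SE 0.237, adjusted p = 0.994 from limma) over all arrays and 0.59 on the first arrays. *Psrc1*, which encodes a microtubule-associated protein, was dim, with 5.63, 4.81 and 6.28 in Grsf1cKO mice 1 to 3, against 4.92, 4.42 and 4.60 in WT mice 1 to 3. The genotypes overlapped, with a log2 fold change of 0.93 (SE 0.372). *Eda2r*, a death receptor gene of the TNF family, had 11.10, 10.81 and 12.05 in Grsf1cKO mice 1 to 3, against 10.76, 10.25 and 10.52 in WT mice 1 to 3. Here the Grsf1cKO mice were all higher, Grsf1cKO 3 most of all, with a log2 fold change of 0.81 (SE 0.334); *Eda2r* was named after its values were seen. The lower gene was the thiamine transporter gene *Slc19a2*, with a log2 fold change of -0.32 (SE 0.129). On the first arrays *Slc19a2* had -0.31 and *Psrc1* 0.81, and neither was under an unadjusted p of 0.05 from limma, whereas *Eda2r*, with 0.85, was.

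The number of p53 target genes counted as higher differed between settings, several of which had fewer arrays or tested fewer genes. It was 0 without Grsf1cKO 3, without WT 2 and without WT 3, 1 without WT 1, 1 with the slide as a term and 0 on slide 2 alone. The shares of all probes tested that were higher in these fits were, in the same order, 1.68%, 1.36%, 1.02%, 1.33%, 0.782% and 1.28%. The log2 fold changes on slide 2 alone were 0.70 for *Gadd45a*, 0.85 for *Psrc1* and 0.65 for *Eda2r*, and without Grsf1cKO 3 they were 0.70 for *Gadd45a* and 0.45 for *Eda2r*, with *Psrc1* not tested. The count was also 1 with no filter on dim probes (1.51% of all probes tested) and 2 on the first arrays (1.69%). It was larger in other settings, with 4 under an intensity trend in limma (1.2% of all probes tested). With the replicate number as a block it was 4 (2.27%), and by the test against the normal distribution 5 (3.53%). The median log2 fold change of the list was 0.04 with the slide as a term, 0.02 on slide 2 alone, 0.02 without Grsf1cKO 3, 0.02 without WT 2 and 0.09 without WT 1.

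**Figure D3:**
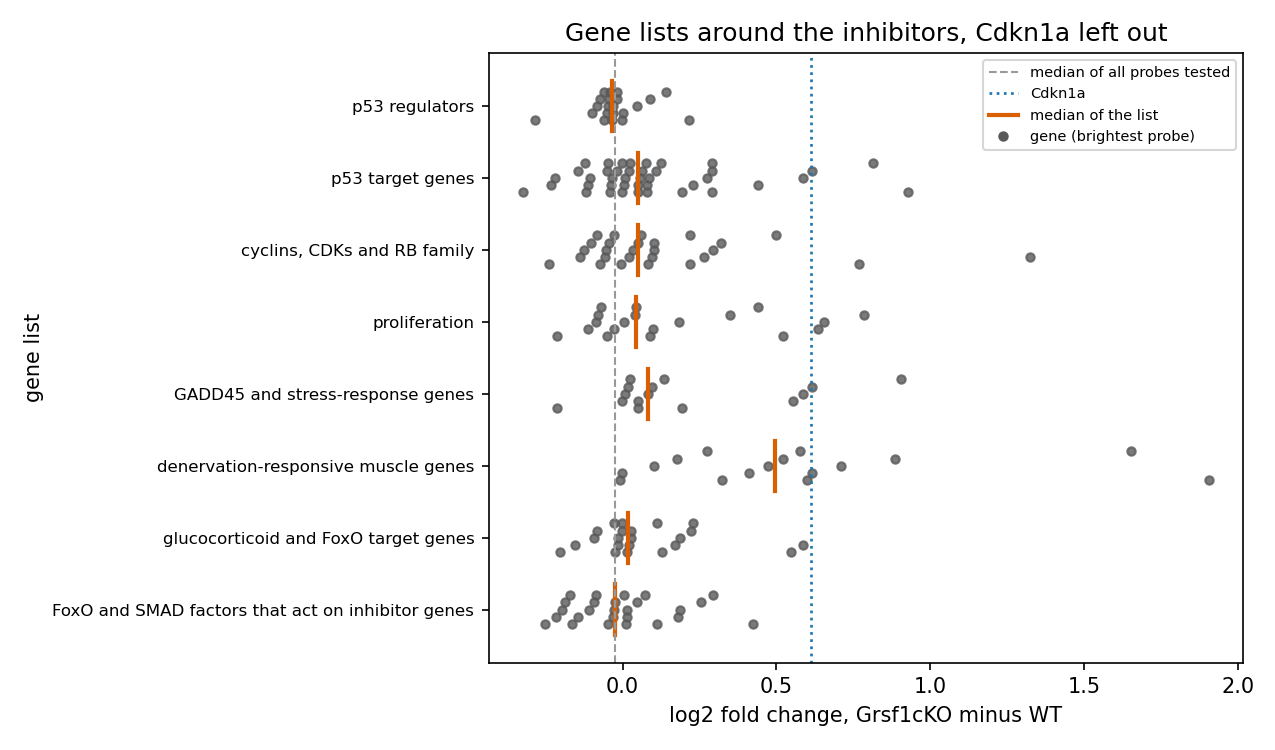
Log2 fold change (Grsf1cKO minus WT) of the brightest probe of each tested gene in 8 lists, *Cdkn1a* left out; orange bars are list medians, the dashed line is the median of all probes tested and the dotted line is *Cdkn1a*. Medians of the p53 lists lie at -0.03 and 0.05, and that of the denervation-responsive genes at 0.50.

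Genes on which the inhibitors act were next examined. Of 30 cyclins, CDKs and members of the RB family, 27 were tested (median log2 fold change 0.05). At an unadjusted p under 0.05 from limma, 0 were higher and 0 lower, against 1.3% and 2.94% of all probes tested. *Cdk1*, *Cdk6* and *Cdc25c* were not well above background in enough mice. The genes of smallest p were the mitotic cyclin gene *Ccnb1*, which was dim, with a log2 fold change of 1.32 (SE 0.545), *Rb1*, whose product restrains E2F factors, with 0.26 (SE 0.121), and *E2f2*, with 0.77 (SE 0.451), or 0.43 without Grsf1cKO 3, a fit in which *Ccnb1* was not tested. For *Rb1* all Grsf1cKO mice, at 12.34, 12.44 and 12.47, lay above all WT mice, at 12.17, 11.95 and 12.33, and for *Rbl2*, a relative named after its values were seen, all lay below; this is 1 of 27 each way, against 3.09% and 6.27% of probes. Of 20 proliferation genes 19 were tested and *Bub1* was too dim. Against 1.3% and 2.94% of all probes tested, 0 of these genes were higher and 0 lower at the same limit (median 0.04). Those of smallest p were *Mki67*, a marker of cycling cells, with a log2 fold change of 0.78 (SE 0.456), the survivin gene *Birc5*, with 0.66 (SE 0.416), and the spindle motor gene *Kif11*, with 0.35 (SE 0.237). In each of these 3 genes Grsf1cKO 3 was the highest mouse, with 8.72, 8.86 and 6.08 on the log2 scale, and without this mouse their log2 fold changes were 0.26, 0.17 and 0.12.

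*Cdkn1a* also answers to signals other than p53, and lists for these were described in the same way. Of 22 glucocorticoid and FoxO target genes, 0 were higher and 0 lower at an unadjusted p under 0.05 from limma. The shares of all probes tested were 1.3% and 2.94%, and the median log2 fold change of the list was 0.02. The list was led by *Mt2*, a metallothionein gene, with 0.55 (SE 0.269), or 0.32 without Grsf1cKO 3, *Pdk4*, a kinase that restrains pyruvate oxidation, with 0.23 (SE 0.121), and *Ddit4*, an inhibitor of mTORC1, with 0.59 (SE 0.405), in which Grsf1cKO 2 stood out at 14.29. Of 26 FoxO, SMAD and related factors that act on inhibitor genes, 0 were higher and 0 lower, against the same shares (median -0.03). The factors of smallest p were *Myc*, with 0.29 (SE 0.14), *Sp1*, with -0.19 (SE 0.0908), and *Klf6*, with -0.15 (SE 0.104). The genotypes did not overlap in *Myc*, higher, and *Sp1*, lower, which is 1 of 26 each way, against 3.09% and 6.27% of probes. *Foxo3*, in both lists and named after its values were seen, had 0.19 over all arrays and 0.34 on the first arrays. On the first arrays its unadjusted p from limma was 0.0233, and the genotypes did not overlap. Of 15 GADD45 and stress-response genes 2 were higher, against 1.3% of all probes tested, and 0 lower, against 2.94% (median 0.08). These were *Gadd45a* and *Atf3*, a stress-induced transcription factor, and they were followed by *Atf4*, its relative, with -0.21 (SE 0.141), or -0.08 without Grsf1cKO 3. *Atf3* had 11.48, 11.11 and 11.57 in Grsf1cKO mice 1 to 3, against 10.67, 10.76 and 10.02 in WT mice 1 to 3. The genotypes did not overlap, as in 3.09% of probes in this direction, with a log2 fold change of 0.90 (SE 0.232, adjusted p = 0.994 from limma) over all arrays and 1.06 on slide 2 alone. *Atf3* too was singled out by the study in these same mice, so that its difference is a description.

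The denervation-responsive muscle genes had the highest median of the 8 lists, 0.50. These genes encode acetylcholine receptor subunits, myogenin and other proteins that fibers make when contact with the nerve is lost, and *Cdkn1a* and *Gadd45a* are known to respond in the same setting. All 16 were tested, and 14 had a log2 fold change above 0. At an unadjusted p under 0.05 from limma, 4 were higher, against 1.3% of all probes tested, and 0 lower, against 2.94%. The genotypes did not overlap in 5, all higher, against 3.09% of probes, and 0 met the 3 criteria. *Gadd45a* is in this list too, and without it 3 of 15 were higher, with a median of 0.47. On the first arrays 5 of the 16 were higher, against 1.69% of all probes tested there, with a median of 0.52.

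*Chrnb1*, the beta subunit of the muscle acetylcholine receptor, had log2 signals of 9.92, 10.08 and 10.55 in Grsf1cKO mice 1 to 3, against 9.43, 9.75 and 9.64 in WT mice 1 to 3. The Grsf1cKO mice were all higher, at a log2 fold change of 0.58 (SE 0.187, adjusted p = 0.994 from limma). *Ampd3*, the AMP deaminase that denervated muscle expresses, had 12.55, 12.17 and 12.25 in Grsf1cKO mice 1 to 3, against 12.04, 11.90 and 11.62 in WT mice 1 to 3. The genotypes again did not overlap, with a log2 fold change of 0.47 (SE 0.156). *Chrna1*, the alpha subunit that binds acetylcholine, had 13.23, 12.79 and 14.05 in Grsf1cKO mice 1 to 3, against 12.31, 12.57 and 12.53 in WT mice 1 to 3. All Grsf1cKO mice were higher, by 0.89 on the log2 scale (SE 0.314). On slide 2 alone these log2 fold changes were 0.67, 0.50 and 0.92. Without Grsf1cKO 3 they were 0.39, 0.51 and 0.54.

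Part of the list's median came from Grsf1cKO 3, as 3 genes chosen after their values were seen show. *Myh3*, embryonic myosin heavy chain, had 9.86, 10.07 and 15.31 in Grsf1cKO mice 1 to 3, against 10.01, 9.98 and 10.28 in WT mice 1 to 3. *Chrng*, the fetal receptor subunit, had 7.17, 5.71 and 11.37 in Grsf1cKO mice 1 to 3, against 6.50, 5.95 and 6.08 in WT mice 1 to 3. *Myog*, myogenin, had 9.25, 9.19 and 11.32 in Grsf1cKO mice 1 to 3, against 9.34, 9.14 and 9.14 in WT mice 1 to 3. All 3 were far higher in Grsf1cKO 3 than in any other mouse, and in *Chrng* Grsf1cKO 1 also lay above all WT mice. Without this mouse the median of the list was 0.21, against 0.50 on slide 2 alone and 0.49 with the slide as a term. The count higher at an unadjusted p under 0.05 from limma was 3 without this mouse, against 1.68% of all probes tested. Leaving out other mice moved the count to 7 (without Grsf1cKO 2), 1 (without WT 1) and 1 (without WT 3). In these fits 1.32%, 1.33% and 1.02% of all probes tested were higher, and the median of the list was 0.60, 0.53 and 0.46.

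**Figure D4:**
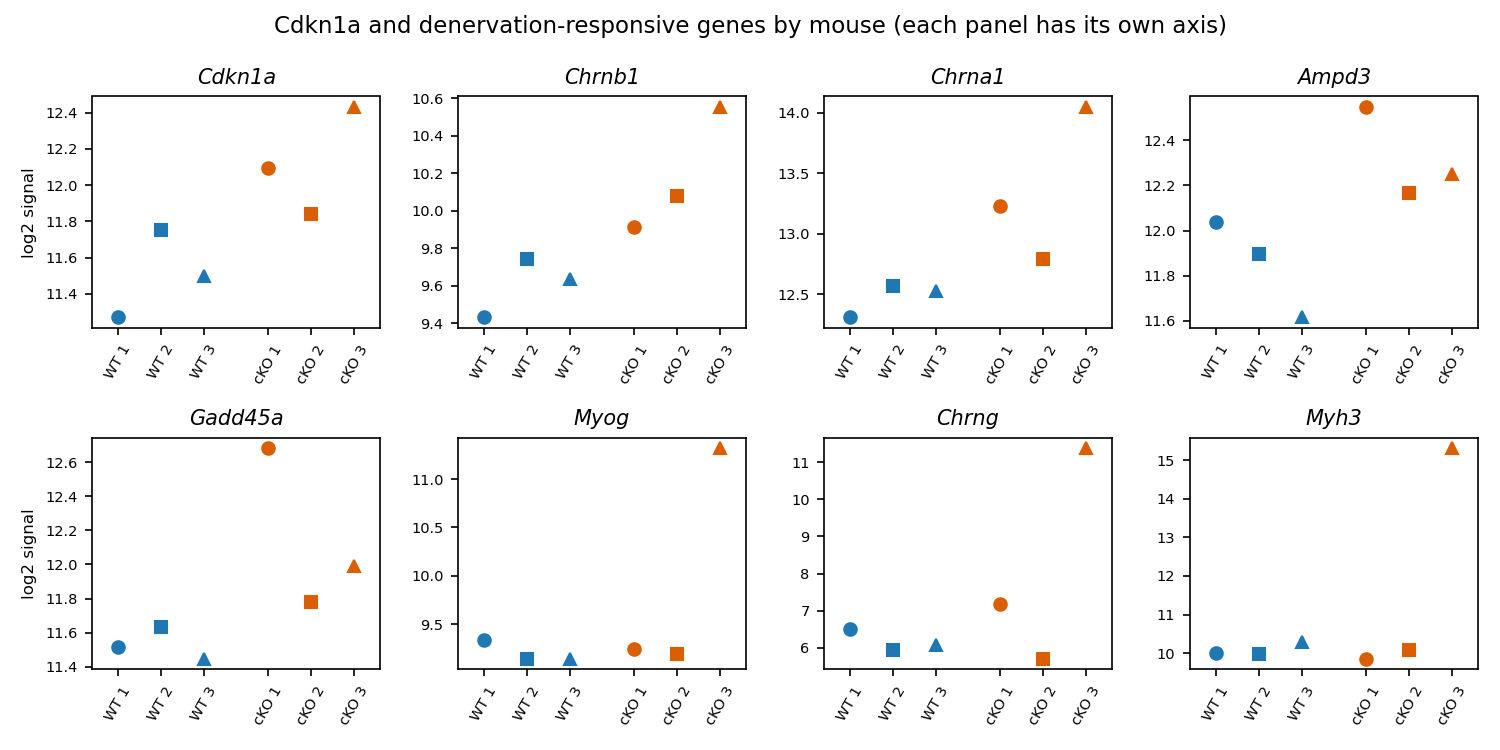
Log2 signal of *Cdkn1a* and of 7 denervation-responsive genes in each mouse, WT in blue and Grsf1cKO in orange, with a separate axis for each gene. *Cdkn1a*, *Chrnb1*, *Chrna1*, *Ampd3* and *Gadd45a* lie higher in all 3 Grsf1cKO mice than in the WT mice. *Myog*, *Chrng* and *Myh3* are far higher in Grsf1cKO 3 than in any other mouse.

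The genes most like *Cdkn1a* were also ranked over all 17028 other genes with a symbol and a tested probe, by the root mean square difference of their centered log2 signals over the 6 mice. The closest 5 were *Pld3* (0.0991), *Scgb3a1* (0.103), *Xirp1* (0.112), *Chrnb1* (0.137) and *Gal3st2* (0.142). *Pld3* encodes a lysosomal nuclease, *Scgb3a1* a small secreted protein, *Xirp1* an actin-binding protein of muscle that marks fiber damage, and *Gal3st2* a sulfotransferase. Their log2 fold changes, 0.45, 0.60, 0.51, 0.58 and 0.44, follow from a choice made on the same mice and are a description.

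Markers of other cells in the tissue were examined as whole lists. The summed signal of 10 macrophage markers, led by *Itgam*, was 67069.6, 68780.4 and 96720.2 in Grsf1cKO mice 1 to 3, against 67825.7, 81730.4 and 67927.3 in WT mice 1 to 3. Grsf1cKO 3 was the highest mouse, and WT 2 lay above the remaining mice of either genotype. Of these 10 markers 9 had a log2 fold change above 0, with a median of 0.21. At an unadjusted p under 0.05 from limma 0 were higher and 0 lower, against 1.3% and 2.94% of all probes tested. Fibroblast and fibro-adipogenic markers were above 0 in 7 of 7, also with a median of 0.21, and Schwann cell markers in 6 of 6, with a median of 0.08. Markers above 0 numbered 6 of 10 for fibers, 4 of 7 for satellite cells, 4 of 8 for lymphocytes, 2 of 7 for endothelium, 3 of 6 for smooth muscle, 2 of 6 for adipocytes and 0 of 4 for erythroid cells. Of 8 satellite cell markers 7 were well above background and *Myf5* was not, *Des*, which fibers also express, being the brightest. Their summed signal was 105839, 120330 and 116234 in Grsf1cKO mice 1 to 3, against 92681.7, 115172 and 112333 in WT mice 1 to 3. The genotypes overlapped in this sum, and 1 of 7 markers was higher at the same limit, against 1.3% of all probes tested. It was the adhesion gene *Vcam1*, named after its values were seen, with a log2 fold change of 0.36 (SE 0.134), and it was no longer under that limit without Grsf1cKO 3 (0.25), with the slide as a term (0.33) or on slide 2 alone (0.36). The sums of the fiber, satellite cell, macrophage, lymphocyte, endothelial, fibroblast, smooth muscle, adipocyte, Schwann cell and erythroid lists in Grsf1cKO were between 0.93 and 1.08 times those in WT, and the genotypes overlapped in all 10. Whether other cell types had a share in the *Cdkn1a* difference was not tested.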

How the data were processed

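The authors deposited Agilent Feature Extraction (version 12.0.3.1) output, in which each spot has an intensity on a linear scale and flags for background, saturation and outliers, and a table of z-scores. Per the deposited values, each score is the log2 processed signal centered and scaled over all spots of its array. Per the methods, the authors quantile normalized intensities and compared z-scores by a z-test.

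Here, processed signals of non-control spots were quantile normalized over 8 arrays, log2-transformed, and averaged per probe and per mouse; outlier spots were set to missing, and no spot was saturated. Genotypes were compared with limma 3.58.1 (R 4.3.3) across 38888 probes with Benjamini-Hochberg adjustment, without a replicate block. Of 56605 probes, 32994 were named through RefSeq accessions. The brightest probe stood for a gene. Alternatives covered scaling, background correction, the detection filter, repeat arrays, slide, test, replicate block and each mouse left out. The rule for named genes takes the 10 genes chosen, the 3 of smallest p in each list and the 5 most like *Cdkn1a*; *Grsf1*, the brightest markers and genes too dim to test are also named, and any others were named after their values were seen. The genes and lists were chosen with earlier results of these data known. The code was tested on simulated data. The number of arrays limits the precision.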

Additional observations from a re-analysis of the deposited data

How the results depend on the processing

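None of the 10 genes met the criteria in any of the limma settings, in which the adjusted p of *Cdkn1a* was 0.791 or higher. The z-test named in the methods, run on log2 signals without the study's z-ratio, present-absent and ANOVA filters and taken as the mean difference over its standard error against the normal distribution, called *Cdkn1a* (0.61, adjusted p = 0.136, where the limma settings gave 0.791 to 1). *Cdkn2c* had an adjusted p of 0.0821 in that test and was not called, since it missed the limit on fold change. That test called 320 probes in all, 81 higher and 239 lower, against 3 with limma (3 to 4 with each mouse left out). With the replicate number as a replicate block, 1 probe was called higher and 0 lower, so that *Grsf1* was not among the calls. The labels give the numbers no other meaning, and same-numbered mice had correlations of deviations of 0.226, 0.1 and 0.0942, not all over 0.1. Each was the highest of its 2 mice, though Grsf1cKO 2 had nearly the same correlation with WT 3 (0.0936). At an unadjusted p under 0.05, 505 probes were higher and 1143 lower, but 1031 and 271 after scaling to the 75th percentile, under which *Cdkn1a* had 0.61 and *Cdkn2c* -0.34. The causes of the following turns of sign and shifts were not tested. With deposited z-scores *Mdm2* gave 0.0429 and *Ccng1* 0.0286, and the median of the p53 target genes was 0. *Cdkn2d* gave 0.0132 with normexp, 0.00905 with repeat arrays in place of the first, 0.00966 with the slide as a term and 0.0107 on slide 2 alone. *Mdm2* gave 0.00728 with the slide as a term, 0.00152 on slide 2 alone and 0.0714 as the mean of its probes. With each mouse left out, values ranged from -0.0330 to 0.78 for *Cdkn2a*, -0.46 to 0.0186 for *Cdkn2b*, -0.0543 to 0.0350 for *Cdkn2d*, -0.0301 to 0.19 for *Trp53*, -0.0738 to 0.0255 for *Mdm2* and -0.23 to 0.0126 for *Ccng1*. *Cdkn1a* minus *Cdkn2a* ranged from -0.29 to 0.64. The settings for the counts of p53 target genes, and for the counts and the median of denervation-responsive genes, were chosen after seeing the data. Signal over background limited the second *Cdkn2a* probe.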

Other observations

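Grsf1cKO 3 stood above all other mice on more probes than any other mouse did. On 236 of 38859 probes its log2 signal was more than 1 above that of all other mice, against 115 for Grsf1cKO 1 (its repeat array included), 28 for Grsf1cKO 2, 23 for WT 1, 35 for WT 2 and 25 for WT 3. *Myh3*, *Chrng* and *Myog*, genes of developing fibers, were high in it, as given above. Among macrophage genes, named after their values were seen, *Cd68*, a gene of the macrophage lysosome, had log2 signals of 11.81, 11.97 and 13.31 in Grsf1cKO mice 1 to 3, against 11.66, 11.86 and 11.57 in WT mice 1 to 3. *Lyz2*, lysozyme, had 9.68, 9.87 and 11.34 in Grsf1cKO mice 1 to 3, against 9.53, 10.29 and 9.76 in WT mice 1 to 3. Both genes were high in Grsf1cKO 3 alone. This mouse was also the highest in *Cdkn1a*, *Chrna1*, *Chrnb1* and *Eda2r*, but not in *Gadd45a* or *Ampd3*, in which Grsf1cKO 1 was the highest.

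The slow myosin gene *Myh7*, also named after its values were seen, split the mice in a way that crossed the genotypes. Its log2 signal was 11.36, 9.47 and 9.40 in Grsf1cKO mice 1 to 3, against 9.28, 11.39 and 11.33 in WT mice 1 to 3, so that Grsf1cKO 1, WT 2 and WT 3 were high. *Cdkn1a* was highest in Grsf1cKO 3 and lowest in WT 1, both of them low in *Myh7*. Among the WT mice *Cdkn1a* ranked as *Myh7* did, with WT 2 highest and WT 1 lowest, but among the Grsf1cKO mice it did not. Whether these genes are related was not tested.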
